A study of Mus musculus with 6 samples.

Results

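The genes described here are 40 mouse genes of zinc, iron and copper handling, out of 50600 gene identifiers in the files. They were picked by symbol from a list of metallothioneins, metal transporters, ferritin genes and their regulators, and each symbol matched 1 identifier. Expression was measured by sequencing polyadenylated RNA of primary cortical thymic epithelial cells (cTECs), the cells of the thymus cortex that present peptides to developing T cells. The KO group was 3 libraries from B6.B6CB-Psmb11tm1Smta mice (Psmb11-/-) and the WT group 3 libraries from Psmb11+/+ mice, all aged 8 to 10 weeks. Psmb11 encodes a catalytic proteasome subunit of cTECs, and the deletion is not limited to a tissue in the labels. Libraries are named A, B and C in each group, and values below are in that order. Nothing in the labels says that a group's libraries are from different animals, so p-values measure only the spread between these samples, which may be technical. The labels do not describe the cell sort. Medullary epithelial cells and thymocyte subsets, which the series' design also names, were not analysed here.

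Cells keep free zinc, iron and copper low because each metal is both a cofactor and, unbound, a source of damage. Slc39a proteins carry zinc into the cytosol and Slc30a proteins carry it out or into compartments, while metallothioneins bind zinc and copper, and the factor MTF1 switches metallothionein genes on through metal response elements in their promoters. Iron enters on transferrin through the transferrin receptor, is stored in ferritin and leaves through ferroportin, and iron regulatory proteins bind hairpins called iron responsive elements in the mRNAs of ferritin and the transferrin receptor.

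Promoter sequences are given for the metallothionein genes and for the genes called between KO and WT whose window held a metal response element core, so that the zinc sensor's recognition letters can be seen beside the expression values. The core was searched as TGCACNC or TGCGCNC on both strands in RefSeq windows (GRCm38.p6) from 250 bases before to 50 bases after each start. A core stood in 18 of the 44 windows of the 33 genes with a window (40.9%), against 25.7% of the 32851 windows of all genes. The Mt2 window held 4 cores and the Mt1 window 3, and at least 3 cores stood in 1.97% of all windows. Slc39a4, Slc39a6, Slc39a14, Trf, Slc11a2, Slc40a1 and Heph had no window. Of the called genes, Fth1, Ftl1, Cp and Steap3 had windows without a core, as were the windows of Ncoa4 and Slc39a8 that are not printed. The 250 bases before the start are printed on the gene's strand, with cores in capitals in either orientation. They hold 3 of the Mt2 cores and 1 of the Mt1 cores, and the other cores of both genes lie after the start. That start is the one annotated for the RefSeq window. Whether transcription of these genes begins there in these cells was not tested. A match is a description of letters and not a bound site.
Mt2 chr8:94172368-94172617 (plus strand): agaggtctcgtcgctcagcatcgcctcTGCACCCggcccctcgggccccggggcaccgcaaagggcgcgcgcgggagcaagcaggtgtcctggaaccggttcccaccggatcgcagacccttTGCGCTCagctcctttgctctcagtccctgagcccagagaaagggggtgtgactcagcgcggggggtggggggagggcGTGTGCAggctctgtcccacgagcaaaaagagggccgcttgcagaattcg
Mt1 chr8:94178839-94179088 (plus strand): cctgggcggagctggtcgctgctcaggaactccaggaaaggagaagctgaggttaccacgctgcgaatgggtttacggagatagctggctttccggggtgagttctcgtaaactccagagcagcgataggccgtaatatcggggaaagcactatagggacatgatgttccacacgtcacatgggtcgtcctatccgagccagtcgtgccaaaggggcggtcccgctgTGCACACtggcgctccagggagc
Atp7b chr8:22060075-22060324 (minus strand): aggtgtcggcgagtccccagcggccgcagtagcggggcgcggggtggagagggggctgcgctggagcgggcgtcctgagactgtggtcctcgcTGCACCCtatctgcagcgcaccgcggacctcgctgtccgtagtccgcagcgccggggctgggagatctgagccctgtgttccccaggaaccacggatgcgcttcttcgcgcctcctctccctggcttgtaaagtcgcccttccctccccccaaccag
Slc39a8 chr3:135825407-135825656 (plus strand): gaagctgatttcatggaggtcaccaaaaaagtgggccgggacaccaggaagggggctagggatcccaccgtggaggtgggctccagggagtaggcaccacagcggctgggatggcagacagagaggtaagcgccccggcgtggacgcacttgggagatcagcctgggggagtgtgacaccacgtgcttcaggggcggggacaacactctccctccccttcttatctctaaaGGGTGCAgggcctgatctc
Ncoa4 chr14:32165539-32165788 (plus strand): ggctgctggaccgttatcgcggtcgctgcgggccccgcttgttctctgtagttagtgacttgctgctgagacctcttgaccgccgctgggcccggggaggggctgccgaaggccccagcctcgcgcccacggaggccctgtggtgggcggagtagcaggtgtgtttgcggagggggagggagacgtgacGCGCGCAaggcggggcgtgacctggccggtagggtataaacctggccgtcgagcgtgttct

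Iron responsive elements are given for the ferritin chains and the transferrin receptor because these transcripts are the textbook targets of the iron regulatory proteins. GENCODE M21 transcripts (GRCm38) were searched for a C, 5 stem bases, the loop letters CAGTG with A, C or T after them, and 5 bases able to pair with the stem, wobble pairs included. A match was found in 222 of 21877 protein-coding genes (1.01%), among them 4 of the 40 genes, Fth1, Ftl1, Tfrc and Slc40a1. Tfrc held 4 matches. A hairpin with an unpaired base among those 5 pairs is missed by this pattern, so a gene without a match may still hold an element. This search was chosen after the expression values were seen. The loop is in capitals in each 29-base stretch.
Fth1 chr19:9982732-9982760 (plus strand): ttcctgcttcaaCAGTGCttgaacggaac
Ftl1 chr7:45459779-45459807 (minus strand): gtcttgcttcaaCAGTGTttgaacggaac
Tfrc chr16:32631219-32631247 (plus strand): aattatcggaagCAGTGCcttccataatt
Tfrc chr16:32631598-32631626 (plus strand): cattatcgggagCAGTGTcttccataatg
Tfrc chr16:32631663-32631691 (plus strand): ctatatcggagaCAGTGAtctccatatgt
Tfrc chr16:32631710-32631738 (plus strand): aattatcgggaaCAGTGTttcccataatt

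Gene counts per library ran between 34265035 and 36713388 in KO and between 34660349 and 39224292 in WT. Psmb11 had 1.81, 0.977 and 1.2 CPM (counts scaled to library size with TMM factors) in KO, against 241, 259 and 257 CPM in WT, in keeping with the labels. Marker lists of several cell types also moved with genotype. Of 12 cTEC markers, Psmb11 among them, 10 fell in KO and 1 rose, with summed levels of 3268 to 3916 CPM in KO and 5997 to 6286 CPM in WT. Summed mTEC markers lay between 6107 and 6455 CPM in KO and between 4794 and 5366 CPM in WT, with 6 of 10 higher. Fibroblast and pericyte markers summed to 1249 to 1344 CPM in KO and 867 to 975 CPM in WT (7 of 9 higher). Dendritic cell and macrophage markers summed to 85.4 to 91.9 CPM in KO and 50.5 to 58.0 CPM in WT (7 of 13 tested higher, of 15 listed). Tuft cell markers summed to 171 to 219 CPM in KO and 108 to 118 CPM in WT (7 of 8 higher). The endothelial (6 of 7 genes tested), B cell (2 of 5 tested) and erythroid (1 of 9 tested) lists had no gene called and the thymocyte list (11 of 12 tested) 1. With so few tested, the B cell and erythroid lists say little by their calls. The erythroid list summed to at most 1.63 CPM in KO and 1.84 CPM in WT, with Slc4a1 at 0 in every library. The part of cell composition in the results below was not tested.

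In KO cTECs, transcripts of the copper pump Atp7b, the zinc importer Slc39a8, the ferritin chains Fth1 and Ftl1, the ferritin receptor Ncoa4 and the iron importer Slc11a2 fell. The iron carrier and oxidase genes Trf and Cp, the endosomal reductase Steap3 and the importers Slc39a4 and Slc39a14 rose. Of the 40 genes, 38 had enough counts to be tested, and 11 of them (28.9%) passed an adjusted p of 0.05 in edgeR's quasi-likelihood test, against 23.6% of the 16938 genes tested. Among them 5 rose (13.2%, against 12.5% of all genes) and 6 fell (15.8%, against 11.1%), so the share called was near the background. The CPM of the groups did not overlap for 14 of the 38 genes (36.8%), against 39.3% of all genes. Their median log2 fold change was -0.02, against -0.00 over all genes, and their median absolute log2 fold change was 0.10, against 0.13. Most differences were thus small, and the ranks of the folds in the plot of fold changes by role were led by Trf, Cp and Slc39a4 upward and Atp7b downward.

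**Figure D1:**
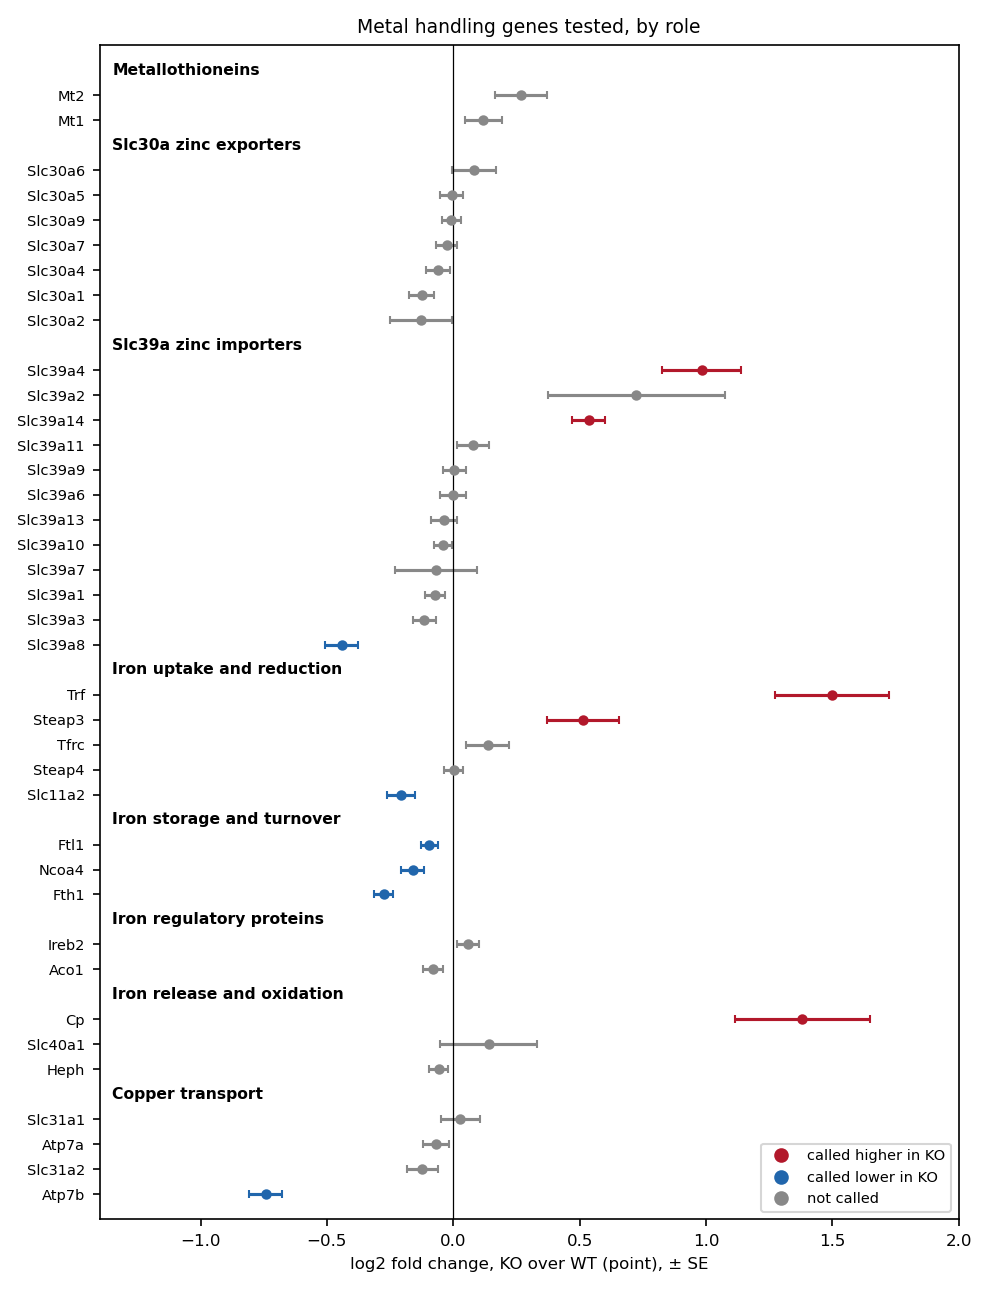
Log2 fold change, KO over WT, of the 38 genes tested, grouped by role, with bars of 1 SE. Red points were called higher and blue points lower in KO at an adjusted p of 0.05 (edgeR), and grey points were not called; Trf (1.5) and Atp7b (-0.74) are the extremes.

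Transcript levels, in TPM (RSEM's abundance, scaled for length), spanned a wide range. The ferritin chains were highest, with Fth1 at 2358 ± 95.8 TPM in KO and 2787 ± 29.1 TPM in WT and Ftl1 at 1858 ± 21.5 TPM in KO and 1967 ± 35.5 TPM in WT (SD, n = 3 each). The metallothioneins Mt2 and Mt1 followed. Of the 40 genes, 30 averaged at least 10 TPM over all libraries, and 3 averaged under 1 TPM. Those 3 were Slc39a2 and the pair that was not tested, Slc11a1, the phagosomal metal transporter of macrophages, with 3, 3 and 6 counts in KO and 3, 4 and 5 counts in WT, and Slc30a10, a manganese exporter, with 11, 1 and 2 counts in KO and 3, 10 and 7 counts in WT.

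**Figure D2:**
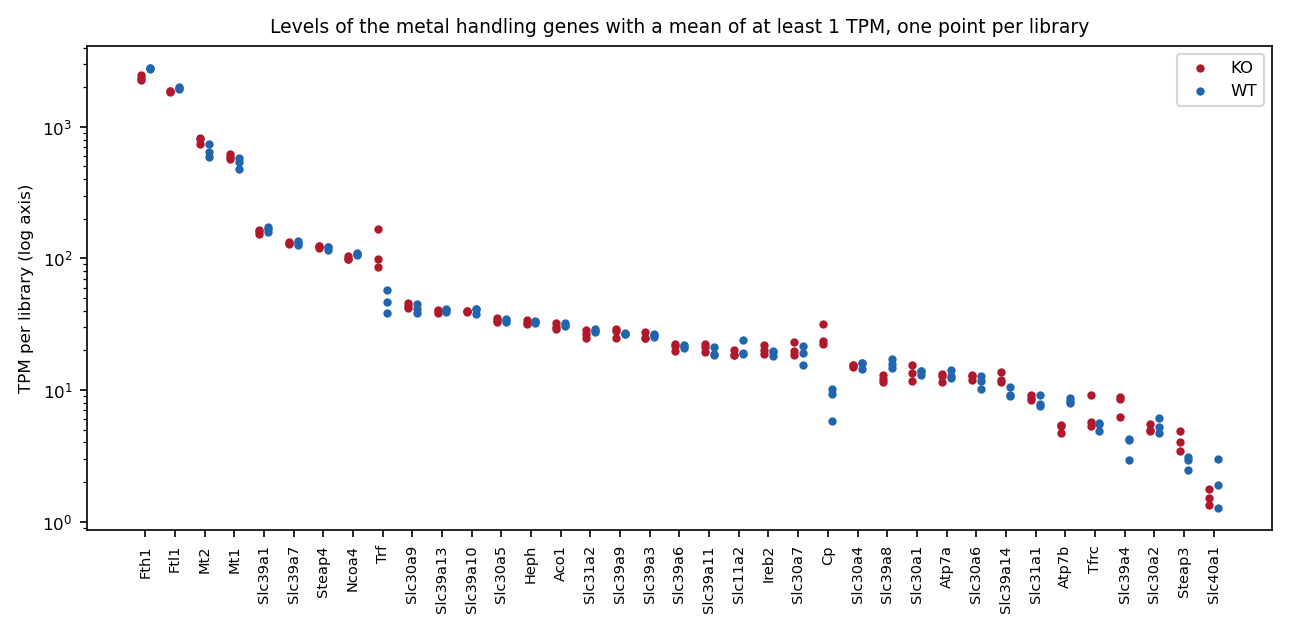
TPM per library on a log axis for the genes averaging at least 1 TPM, in falling order of their mean, with KO points in red left of WT points in blue. Fth1, Ftl1, Mt2 and Mt1 stand above the transporters, and Trf, Cp, Slc39a4 and Atp7b show separate groups.

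Metallothioneins were abundant in both genotypes and were not called. Mt2 had 184, 194 and 200 CPM in KO, against 185, 149 and 145 CPM in WT. WT library A lay within the KO values and the other WT libraries below them. The log2 fold change of Mt2 was 0.27 ± 0.10 (SE, adjusted p = 0.131, edgeR). Mt1, its neighbour on chromosome 8, had 146, 157 and 148 CPM in KO, against 153, 138 and 124 CPM in WT, again with WT library A among the KO values, and a log2 fold change of 0.12 ± 0.07 (adjusted p = 0.294, edgeR). Without WT library A both genes were called higher in KO, Mt2 by 0.39 (adjusted p = 4.18e-05) and Mt1 by 0.20 (adjusted p = 0.0149) on the log2 scale, in a fit that called 17.3% of all genes. Without WT library C, Mt2 was at 0.20 (adjusted p = 0.215) and Mt1 at 0.04 (adjusted p = 0.638). With all libraries but no filter on low counts, Mt2 (adjusted p = 0.0476) and Mt1 (adjusted p = 0.0400) were called, and Mt2 also without the robust option (adjusted p = 0.0213). Together they summed to 1383 ± 58.9 TPM in KO and 1192 ± 128 TPM in WT (SD, n = 3 each), with overlapping groups. Mtf1, the factor that binds metal response elements, averaged 35.2 ± 1.85 CPM in KO, against 34.0 ± 1.9 CPM in WT, and did not pass the test (log2 fold change 0.05, adjusted p = 0.580). It was the only tested gene of 8 further zinc genes, which include the metallothioneins Mt3 and Mt4 and the exporters Slc30a3 and Slc30a8.

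None of the 7 zinc exporters tested was called, against 23.6% of all genes. Slc30a1, the exporter of the plasma membrane and itself a target of MTF1, had 34.1, 34.9 and 32.5 CPM in KO, against 37.2, 36.7 and 36.8 CPM in WT. All KO values lay below all WT values, with a log2 fold change of -0.13 ± 0.05 (adjusted p = 0.0772, edgeR). The 7 exporters tested lay between -0.13 and 0.08 in log2 fold change. Slc30a9, the highest of them in TPM, averaged 43.9 ± 2.01 TPM in KO and 41.8 ± 3.31 TPM in WT, and Slc30a2, the lowest, 5.12 ± 0.362 TPM in KO and 5.37 ± 0.735 TPM in WT. Slc30a5, Slc30a6 and Slc30a7, which load zinc into the secretory pathway, and Slc30a4, a vesicle transporter, lay between these levels. The 8 exporters summed to 145 ± 2.61 TPM in KO and 140 ± 5.84 TPM in WT.

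Of the 12 zinc importers, 2 were called higher and 1 lower in KO, against 12.5% of all genes higher and 11.1% lower, so the family as a whole was near the background. Slc39a4 (ENSMUSG00000063354.6, chr15:76612383-76617384, minus strand), the intestinal zinc importer whose loss causes acrodermatitis enteropathica in humans, had 7.71, 10.7 and 10.5 CPM in KO, against 3.83, 5.38 and 5.37 CPM in WT. Every KO library was above every WT library, and library A was lowest in both genotypes. It rose by 0.98 ± 0.16 on the log2 scale (1.98-fold, adjusted p = 5.52e-04, edgeR). Slc39a14 (ENSMUSG00000022094.15, chr14:70303469-70351425, minus strand), which carries zinc, manganese and iron not bound to transferrin, had 23.2, 25.2 and 24.7 CPM in KO, against 16.2, 17.3 and 16.9 CPM in WT. The groups were well apart, and the log2 fold change was 0.54 ± 0.06 (1.45-fold, adjusted p = 2.59e-05). On log2(TPM + 1) with limma the call was lost (0.33, adjusted p = 0.0737), in a fit that called 11.4% of all genes.

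Slc39a8 (ENSMUSG00000053897.15, chr3:135825279-135888572, plus strand), the closest relative of Slc39a14 with much the same substrates, moved the other way. It had 21.6, 24.4 and 23.3 CPM in KO, against 29.4, 33.5 and 31.1 CPM in WT, and the groups did not overlap. Its log2 fold change was -0.44 ± 0.06 (1.36-fold lower in KO, adjusted p = 1.40e-04, edgeR). In bulk samples, fewer cells of a type and less RNA per cell cannot be told apart. In TPM, Slc39a8 averaged 12.2 ± 0.793 in KO and 15.8 ± 1.28 in WT and Slc39a14 12.4 ± 1.13 in KO and 9.60 ± 0.844 in WT, so the more abundant of the pair was Slc39a8 in WT, while in KO their levels were within 1 SD of each other.

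The other 9 importers were not called. Slc39a1, a plasma membrane importer and the most abundant of the family, averaged 160 ± 5.61 TPM in KO and 167 ± 6.21 TPM in WT. Slc39a7, which releases zinc from the endoplasmic reticulum and Golgi, had 131, 132 and 128 TPM in KO, against 126, 131 and 135 TPM in WT. Its read counts were 2.08% of the RSEM expected counts, with the transcript Gm20427 annotated over it on the same strand, so its count test rests on few reads, and with expected counts it was not called either (adjusted p = 0.678). Slc39a3 had 44.9, 47.2 and 48.6 CPM in KO, against 51.2, 50.3 and 50.9 CPM in WT, without overlap (log2 fold change -0.11, adjusted p = 0.0764). Slc39a2, at 0.539, 0.868 and 0.644 CPM in KO, against 0.494, 0.390 and 0.358 CPM in WT, did not overlap either and was not called (0.72 ± 0.35, adjusted p = 0.153). Slc39a6 and Slc39a10, importers of the plasma membrane, Slc39a9 and Slc39a13, which act at the Golgi and vesicles, and Slc39a11 averaged between 19.5 and 40.4 TPM in either genotype. The 12 importers summed to 498 ± 12.5 TPM in KO and 501 ± 13.0 TPM in WT, with overlapping libraries.

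Of the 5 genes of iron uptake and reduction tested, 2 were called higher and 1 lower in KO, against 12.5% and 11.1% of all genes, and of these calls only that of Trf was made under each alternative in which the gene was tested. Trf (ENSMUSG00000032554.15, chr9:103204001-103230444, minus strand) encodes transferrin, the iron carrier of plasma, and had 84, 139 and 104 counts in KO, against 33, 43 and 41 counts in WT. These were 2.26, 3.77 and 3.04 CPM in KO, against 0.958, 1.2 and 1.05 CPM in WT, with every KO library above every WT library. The log2 fold change was 1.5 ± 0.23 (2.82-fold, adjusted p = 1.78e-04, edgeR). The read counts were only 3.14% of the expected counts. A protein-coding gene model, Gm20425 (chr9:103190208-103230307), covers most of Trf on the same strand, and the size of the change is uncertain. RSEM, which shares such reads out, gave 85.4, 166 and 98.8 TPM in KO and 47.0, 38.5 and 57.1 TPM in WT, and its expected counts a log2 fold change of 1.41 (adjusted p = 0.0418, edgeR), in a fit that called 22.4% of all genes.

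Steap3 (ENSMUSG00000026389.16, chr1:120190757-120272705, minus strand), the ferric reductase of transferrin endosomes, had 7.52, 6.32 and 5.50 CPM in KO, against 4.67, 3.93 and 4.96 CPM in WT. The lowest KO library was just above the highest WT library, with a log2 fold change of 0.51 ± 0.14 (adjusted p = 0.0159, edgeR). The call was lost without KO library A (adjusted p = 0.0852) and without WT library B (adjusted p = 0.0917). Slc11a2 (ENSMUSG00000023030.16, chr15:100387898-100425072, minus strand), which carries ferrous iron across endosomal and plasma membranes, had 29.0, 29.6 and 28.3 CPM in KO, against 31.5, 35.3 and 33.6 CPM in WT. KO libraries were close together and all lower in CPM (log2 fold change -0.21 ± 0.06, adjusted p = 0.0122, edgeR), but without WT library B the adjusted p was 0.0782. In TPM the groups overlapped, with 20.2, 18.5 and 18.4 in KO and 18.9, 23.9 and 19.3 in WT. With limma on TPM the call was lost, at an adjusted p of up to 0.514. Tfrc, the transferrin receptor that binds Trf, had 12.9, 13.0 and 12.1 CPM in KO, against 12.3, 11.3 and 11.0 CPM in WT, which overlapped, and was not called (0.14 ± 0.09, adjusted p = 0.279). Steap4, a metalloreductase, was abundant at 123 ± 2.71 TPM in KO and 120 ± 3.61 TPM in WT and was not called.

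**Figure D3:**
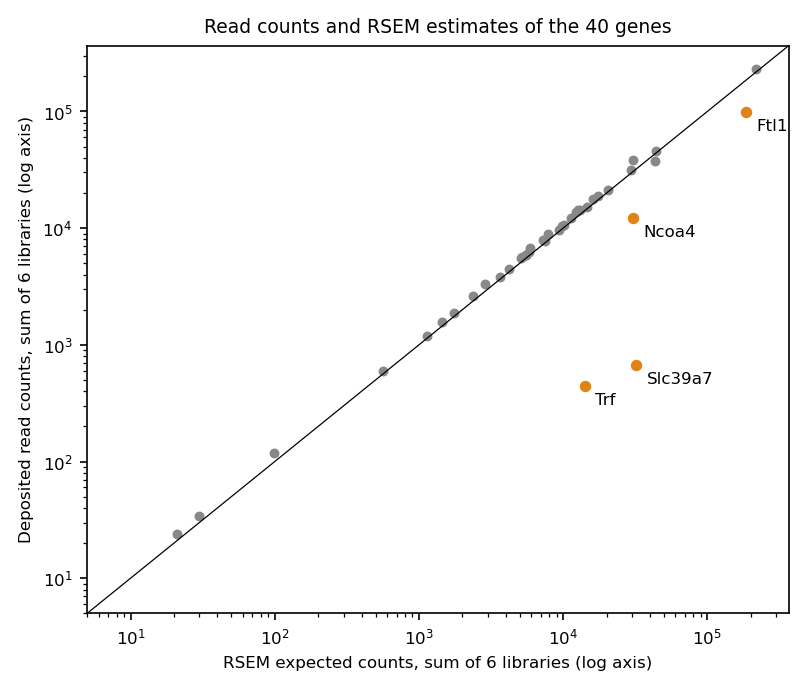
Read counts against RSEM expected counts of the 40 genes, each summed over the 6 libraries, on log axes with the line of equality. The 4 genes in orange hold well under the expected counts, from 2.08% for Slc39a7 and 3.14% for Trf to 40.1% for Ncoa4 and 54.0% for Ftl1, against a median of 109% over all genes tested.

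Fth1, Ftl1 and Ncoa4, the genes of iron storage and ferritin turnover, were each called lower in KO, against 11.1% of all genes. The Fth1 call was made under all 17 alternatives, while those of Ftl1 and Ncoa4 were lost under several. Fth1 (ENSMUSG00000024661.6, chr19:9980598-9985098, plus strand) encodes the ferritin heavy chain, which oxidises iron for storage, and had 994, 920 and 951 CPM in KO, against 1164, 1135 and 1168 CPM in WT. The highest KO library was below the lowest WT library by more than the range within either group. Its log2 fold change was -0.28 ± 0.04 (1.21-fold lower, adjusted p = 6.65e-05, edgeR). Ftl1 (ENSMUSG00000050708.16, chr7:45457944-45459884, minus strand), the light chain that helps form the iron core, had 450, 440 and 434 CPM in KO, against 474, 476 and 465 CPM in WT. KO was lower without overlap, but by only -0.09 ± 0.03 on the log2 scale (adjusted p = 0.0495, edgeR), and the call was lost under 13 of 17 alternatives, including without KO library B or C and without any 1 of the WT libraries. Ncoa4 (ENSMUSG00000056234.14, chr14:32159865-32179855, plus strand), the receptor that delivers ferritin to the autophagosome, had 51.9, 51.8 and 55.4 CPM in KO, against 57.3, 59.0 and 61.5 CPM in WT. Its groups were separate, with a log2 fold change of -0.16 ± 0.05 (adjusted p = 0.0162, edgeR), and the call was lost without KO library B (adjusted p = 0.0567), WT library B (0.0513) or WT library C (0.0940).

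Part of the reads of Ftl1 and Ncoa4 is missing from the counts, which were 54.0% and 40.1% of the expected counts. With expected counts Ftl1 (-0.11, adjusted p = 0.0214, edgeR) and Ncoa4 (-0.14, adjusted p = 0.00901) were lower in KO as well. The 3 genes summed to 4436, 4206 and 4306 TPM in KO, against 4848, 4877 and 4863 TPM in WT, so the 6 libraries separated by genotype. Fth1 TPM over Ftl1 TPM was 1.27 ± 0.04 in KO and 1.42 ± 0.04 in WT (SD, n = 3 each), lower in each KO library than in each WT library. The summed cTEC markers were lower in KO as well, and a part of cell composition in these values was not tested.

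The iron regulatory proteins, which bind the hairpins shown above, were not called. Aco1 averaged 64.1 ± 1.58 CPM in KO, against 67.8 ± 1.71 CPM in WT, and Ireb2 67.5 ± 3.27 CPM in KO, against 64.8 ± 1.46 CPM in WT. Of the 4 genes with a hairpin match, Fth1 and Ftl1 were called lower in KO, against 11.1% of all genes. The Ftl1 call was lost under 13 of 17 alternatives. Tfrc and Slc40a1 were not called. The share called among all 222 genes with a match was not taken, and a part of the hairpins in these values was not tested.

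Of the 3 genes of iron release and oxidation tested, 1 was called, the ferroxidase Cp, which was higher in KO, against 12.5% of all genes. Cp (ENSMUSG00000003617.16, chr3:19957054-20009145, plus strand) encodes ceruloplasmin, a copper enzyme that oxidises iron as it leaves the cell, and had 35.1, 45.7 and 44.9 CPM in KO, against 10.5, 19.1 and 18.4 CPM in WT. Library A was lowest in both genotypes, and the lowest KO library was above the highest WT library. The log2 fold change was 1.38 ± 0.27 (2.60-fold, adjusted p = 0.0284, edgeR). Without WT library A it was 1.16 with an adjusted p of 6.47e-04. Leaving out any other single library raised the adjusted p to between 0.0545 and 0.0877. With all libraries, Cp was called by DESeq2 (adjusted p = 2.82e-05) and by edgeR without the robust option (adjusted p = 1.15e-04). The call was lost under 6 of 17 alternatives. Heph, the related membrane ferroxidase, averaged 84.7 ± 2.61 CPM in KO, against 88.1 ± 1.5 CPM in WT. Slc40a1, or ferroportin, the iron exporter, averaged 2.87 ± 0.338 CPM in KO, against 2.59 ± 0.588 CPM in WT, with overlapping libraries. In TPM, Cp averaged 25.9 ± 5.12 in KO and 8.40 ± 2.26 in WT, and Heph 32.7 ± 0.964 in KO and 33.1 ± 0.570 in WT. Heph was the more abundant ferroxidase in every library, and Cp came close to it only in KO library B (31.7 TPM, against 32.3 TPM for Heph). The fibroblast, mTEC, tuft and myeloid marker sums were also higher in KO as a group. Within KO libraries A, B and C, fibroblast sums were 1249, 1344 and 1302 CPM and mTEC sums 6455, 6107 and 6286 CPM. Tuft sums were 219, 171 and 171 CPM and myeloid sums 88.9, 85.4 and 91.9 CPM. A part of cell composition in Cp was not tested.

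Of the 4 copper transport genes tested, 1 was called, Atp7b, which was lower in KO, against 11.1% of all genes. Atp7b (ENSMUSG00000006567.11, chr8:21992785-22060305, minus strand) is the copper pump mutated in Wilson disease, which loads ceruloplasmin with copper in hepatocytes. It had 20.6, 17.7 and 20.2 CPM in KO, against 31.4, 33.8 and 32.9 CPM in WT, and the groups lay far apart. Its log2 fold change of -0.74 ± 0.06 (1.67-fold lower in KO, adjusted p = 1.23e-06, edgeR) had the lowest p of the 38 genes. The related pump Atp7a, mutated in Menkes disease, averaged 35.5 ± 1.83 CPM in KO, against 37.2 ± 1.01 CPM in WT, which did not pass the test (adjusted p = 0.388). Slc31a1, the main copper importer, averaged 17.8 ± 0.695 CPM in KO, against 17.5 ± 1.57 CPM in WT, and Slc31a2, a vesicle transporter related to it, 25.8 ± 1.87 CPM in KO, against 28 ± 0.824 CPM in WT. Neither passed the test. Summed cTEC markers were also lower in the KO libraries, and a part of cell composition in Atp7b was not tested.

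**Figure D4:**
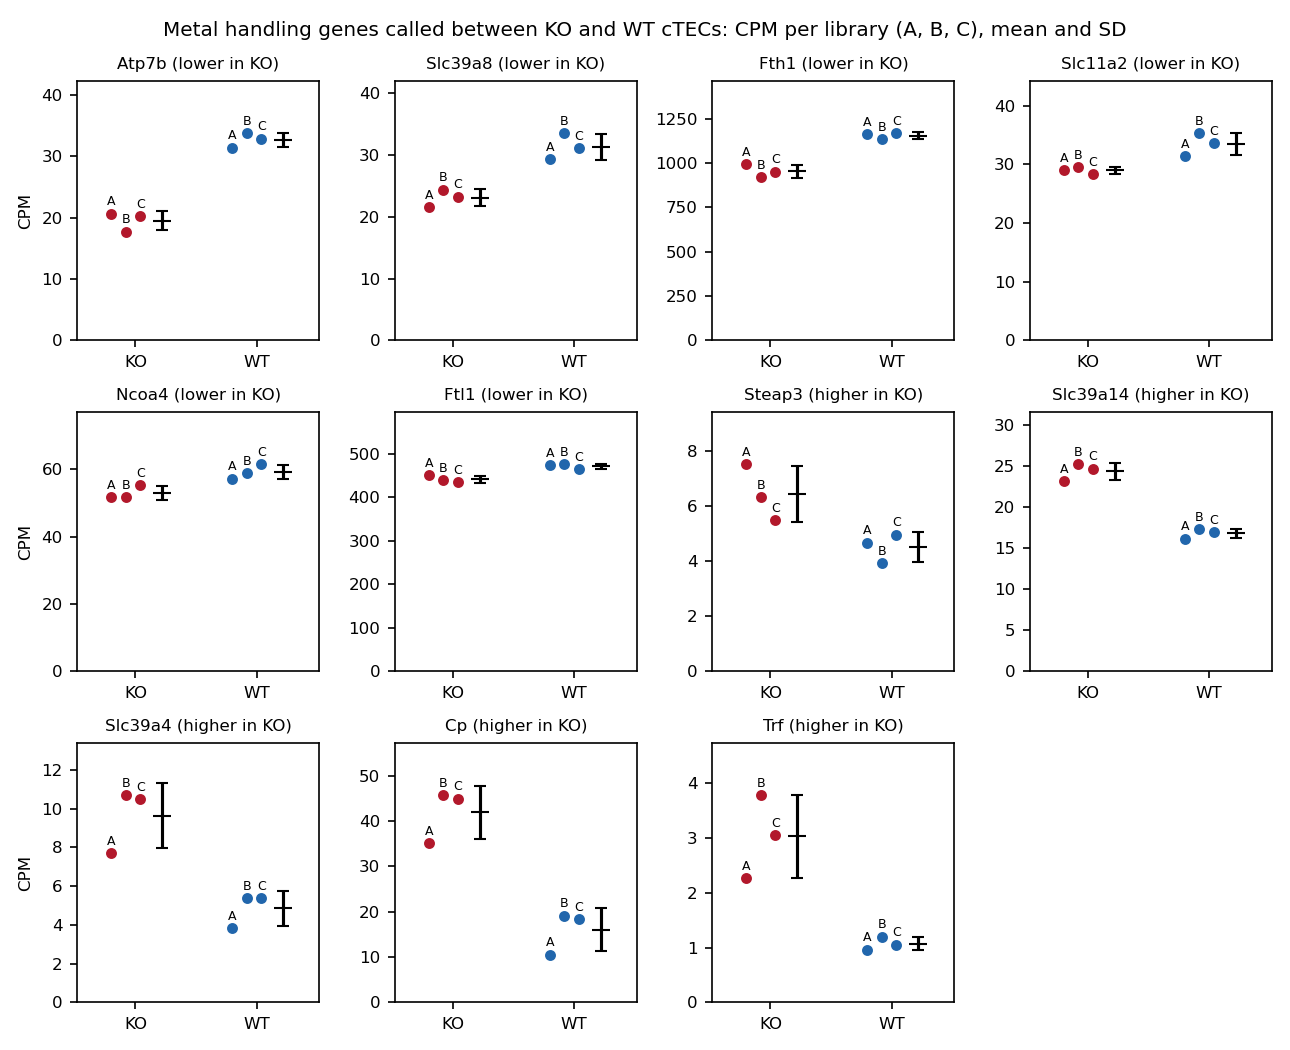
CPM of the 11 called genes in each library (letters A to C), KO left of WT, with the mean and SD (n = 3 each) as black bars, all axes from 0. No gene has overlapping groups, and the gap is narrow for Steap3, Ftl1, Ncoa4 and Slc11a2.

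Further genes of these pathways were read from the same fit over lists of 99 genes, of which 85 were tested, 10 were higher and 12 lower in KO. The share called, 25.9%, was near the 23.6% of all genes. Among copper enzymes and chaperones, 5 of 17 tested genes were called (29.4%, median log2 fold change -0.04). The collagen crosslinking oxidases Lox, Loxl1 and Loxl2 rose, while the superoxide dismutase Sod1 and its copper chaperone Ccs fell. The related oxidases Loxl3 (0.04) and Loxl4 (0.08) and the secreted dismutase Sod3 (0.35) were not called. Lox averaged 128 ± 3.79 CPM in KO, against 106 ± 5.85 CPM in WT (log2 fold change 0.27, adjusted p = 2.95e-04, edgeR), and Loxl1 14.3 ± 1.17 CPM in KO, against 9.58 ± 1.92 CPM in WT (0.57, adjusted p = 0.00502). Loxl2, whose counts were 53.4% of the expected counts, averaged 14.3 ± 1.27 CPM in KO, against 10.4 ± 1.10 CPM in WT (0.46, adjusted p = 0.00270). The calls of Loxl1 and Loxl2 were lost with limma on TPM. Sod1 averaged 166 ± 2.43 CPM in KO, against 191 ± 6.16 CPM in WT (-0.20, adjusted p = 6.74e-04), and Ccs 25.2 ± 0.772 CPM in KO, against 29.5 ± 1.01 CPM in WT (-0.23, adjusted p = 0.00702). Fibroblast and pericyte markers were also higher in KO as a group. Within KO libraries A, B and C, these markers summed to 1249, 1344 and 1302 CPM, and Lox had 129, 123 and 131 CPM. Loxl1 had 12.9, 15.0 and 14.9 CPM and Loxl2 13.8, 13.4 and 15.7 CPM. A part of cell composition in these genes was not tested.

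Of 26 genes that build iron-sulfur clusters, 1 was higher and 6 lower in KO, 26.9% in all against 23.6% of all genes (median log2 fold change -0.11, against -0.00 over all genes). The mitochondrial chaperone Hspa9 averaged 310 ± 1.81 CPM in KO, against 348 ± 6.63 CPM in WT (-0.17, adjusted p = 0.00158, edgeR). Ciapin1, an electron carrier of cytosolic cluster assembly, averaged 28 ± 1.45 CPM in KO, against 32.9 ± 1.32 CPM in WT (-0.24, adjusted p = 0.00670), while Ndor1, the reductase that feeds it electrons, rose (0.13, adjusted p = 0.0282). Bola3, Isca1 and the scaffold gene Iscu fell by 0.23, 0.14 and 0.14 on the log2 scale. The calls of Isca1 and Iscu were each lost under 9 of 17 alternatives, that of Ndor1 under 6, DESeq2 and expected counts among them, and that of Bola3 under 5. Ciapin1 lost its call with limma on TPM at either pseudocount (adjusted p = 0.306 to 0.309). The number lower was 2 without KO library B, WT library A or WT library C. In haem metabolism, 3 of 18 genes were called, all lower in KO, or 16.7% against 23.6% of all genes. They were the haem transporter Slc48a1 (65.6 ± 2.27 CPM in KO, against 76.1 ± 0.605 CPM in WT, adjusted p = 0.00106) and the synthesis enzymes Alad and Urod. The Urod call (adjusted p = 0.0379) was lost when any single library was left out, and the Alad call with limma on TPM (adjusted p = 0.119 to 0.121).

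Of 23 iron scavenging and regulation genes, 6 were higher and 1 lower in KO, 30.4% in all against 23.6% of all genes (median log2 fold change 0.09). Hp, or haptoglobin, which binds haemoglobin, had 5.15, 8.74 and 7.93 CPM in KO, against 1.83, 3.43 and 2.02 CPM in WT, without overlap (log2 fold change 1.58 ± 0.28, adjusted p = 0.00464, edgeR). Bmp6, the ligand that induces hepcidin in the liver, averaged 24.7 ± 3.10 CPM in KO, against 17.8 ± 2.15 CPM in WT (0.47, adjusted p = 0.00804). Its call was lost with limma on TPM (adjusted p = 0.0559 to 0.0594). Lcn2, which binds iron siderophores, averaged 43.0 ± 6.47 CPM in KO, against 30.5 ± 1.96 CPM in WT (0.50, adjusted p = 0.0197), a call lost without KO library C, WT library A or WT library C. Epas1, the hypoxia-inducible factor that drives iron uptake genes in the gut, averaged 56.1 ± 3.96 CPM in KO, against 28.9 ± 7.85 CPM in WT (0.95, adjusted p = 0.0455), and its call was lost when any KO library or WT library B was left out and without a filter on low counts (adjusted p = 0.0860). Hamp2, a hepcidin gene of low counts (25, 24 and 18 in KO, against 13, 8 and 10 in WT), was called at an adjusted p of 0.0431 and lost without any single library, and its reads may be split with its near copy Hamp. Ltf, or lactoferrin, was the remaining gene called higher. Cybrd1, a membrane ferric reductase, fell (-0.36, adjusted p = 0.0156), to 6.96 ± 0.0998 CPM in KO against 8.95 ± 0.520 CPM in WT. It lost its call without WT library A or C and with limma on TPM. The number higher was 3 without KO library B or C or WT library B or C.

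**Figure D5:**
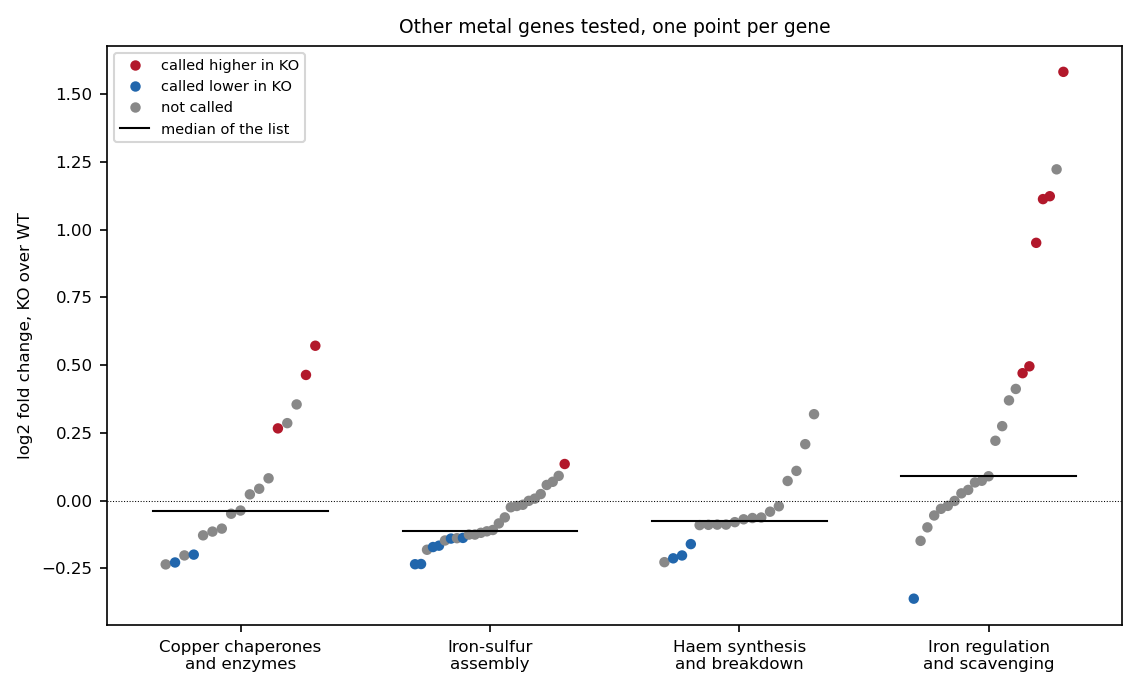
Log2 fold change, KO over WT, of each tested gene of the copper, iron-sulfur, haem and iron regulation lists, 1 point per gene, with each list's median as a black line. Medians are -0.04, -0.11, -0.07 and 0.09, and the iron regulation list reaches highest, at 1.58 for Hp.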

How the data were processed

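RNA was made into stranded polyA libraries, per the labels' protocols. Per the submitters' processing notes, bcl2fastq 2.17, STAR 2.5.1b and RSEM 1.2.28 were used. The build these notes name is human, while the deposited identifiers are mouse. Symbols and positions therefore come from GENCODE M21 (GRCm38), which matched 50376 of 50600 identifiers (99.6%). The authors deposited read counts per gene for each strand setting, of which the opposite-strand column, holding nearly all gene reads, was used. The summary rows that name no gene took 18.4 to 19.8% of reads and were left out. The authors also deposited RSEM expected counts, which were rounded for an alternative fit, and TPM values, used for levels.

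Counts were fitted with edgeR 4.0.16 (R 4.3.3): filterByExpr, TMM (factors 0.994 to 1.01), glmQLFit with robust dispersion and glmQLFTest on all 6 libraries without covariates. Genes were called at a Benjamini-Hochberg adjusted p of 0.05 over all 16938 genes tested, with a common coefficient of biological variation of 0.0538. SE is the log2 fold change divided by the root of F. The robust option was kept because it gave the call counts of an earlier processing of these data. The scripts were tested on simulated data. The 40 genes, the other lists and the markers were chosen with earlier results of these data known. Called genes of the 40 are given in every library, and up to 6 called genes of each other list are named by adjusted p. Nubp2 and Ltf fell outside that number, and Ltf was named after its values were seen. The promoter rule was called genes with a core, and Mt1 and Mt2 were added. Alternatives used DESeq2 1.42.0, limma 3.58.1, other scalings, filters and counts, a replicate block, and leaving out each library. Same-letter libraries did not deviate together, so letters were not taken as pairs. Figures were drawn with matplotlib 3.10.9.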

Additional observations from a re-analysis of the deposited data

How the results depend on the processing

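Of the 40 genes, 5 were called higher in KO and 6 lower with all libraries. With limma at either TPM pseudocount (1 or 0.1) these counts were 3 and 3 higher and 3 and 3 lower. Leaving out each library gave 3 to 7 higher and 3 to 6 lower, with 3 higher without KO library A and without WT library B, and 3 lower without WT library B. Over all genes, 2113 higher and 1876 lower became 1169 and 758 with limma on log2(TPM + 1) and 1119 and 738 on log2(TPM + 0.1). Leaving out 1 library gave 1467 to 1903 higher and 1237 to 1740 lower.

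Atp7b, Slc39a8, Fth1, Slc39a4 and Trf kept their direction and call under each alternative in which they were tested; the filter at a mean of 5 CPM removed Trf. Slc11a2, Steap3 and Ncoa4 lost their calls with limma on TPM as well as without the libraries named above. Cp was lost without a filter on low counts (adjusted p = 0.0519). Mt2 was called without the robust option, which was chosen after the data were seen (adjusted p = 0.0213), and Mt2 (0.0476) and Mt1 (0.0400) were called without a filter on low counts. The causes were not tested. Slc39a3 was called lower only without KO library C (0.0456). Of the 27 genes not called, 10 changed sign under at least 1 alternative, none with a call, and all lay within 0.14 of 0 on the log2 scale with all libraries. No called gene changed sign. With the replicate block (letters as pairs), 5 genes were higher and 5 lower, 2191 and 1906 over all genes, and the calls of Ftl1 (adjusted p = 0.0534), Hamp2 (0.0543) and Epas1 (0.0563) were lost. Same-letter correlations of deviations were -0.02, 0.08 and -0.03, and not every library correlated best with its own letter. At 3 libraries per group and fewer than 10 counts in some libraries, changes in Slc11a1 and Slc30a10 were not detectable at this depth.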
